A study of Mus musculus with 9 samples.

Results

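Gene expression in HT-22 cells given betaine and then homocysteine thiolactone was compared with untreated control, to find what stayed different from control despite betaine and what appeared with the combined treatment. HT-22 is an immortalized mouse hippocampal cell line. There were 3 control libraries, 3 libraries from a 24 hour exposure to homocysteine thiolactone (HTL) at 2 mM, and 3 libraries of cells held in 10 mM betaine for 4 hours before that same HTL exposure. The labels call the control cells wild type and write the treatment in the genotype field, and all groups grew in DMEM with fetal bovine serum. The labels used here do not say what was added to the control cells. Betaine without HTL was not analysed here, so what betaine does on its own and what it does to HTL-treated cells cannot be told apart. Genes whose mean reached 0.5 FPKM (fragments per kilobase, a level corrected for gene length and library depth) over the 6 control and betaine plus HTL libraries were taken, which were 10983 of 21352 listed genes.

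HTL is a cyclic thioester of homocysteine that attaches to lysines of proteins, and bleomycin hydrolase and paraoxonases can hydrolyse it. Betaine is an osmolyte and, where the liver and kidney enzyme BHMT is present, a methyl donor that turns homocysteine back into methionine. Cholesterol synthesis is set by SREBP transcription factors, which leave the endoplasmic reticulum when sterols are low. Amino acid shortage and endoplasmic reticulum stress both raise ATF4, whose targets import and make amino acids. Interferon-stimulated genes respond to the STAT and IRF factors.

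The libraries had been scaled to totals of about 33310000 to 39460000 reads, as inferred from the steps between low values, so that 1 FPKM stood for 33.3 to 39.5 reads per kilobase of gene. Each library had between 16441 and 17256 genes above 0 FPKM. Across genes, log2(FPKM + 1) of libraries within a group correlated at r = 0.9979 to 0.9985, and the betaine plus HTL libraries correlated at 0.9858 to 0.9871 with control and at 0.994 to 0.9951 with HTL. Genes are not independent replicates, so these r are a description. Of 24 neuronal and synaptic markers 14 were in the table and 5 passed the filter. Mapt, Map2 and Rbfox3, which define mature neurons, reached at most 0.0156, 0.412 and 0.00208 FPKM in any library, while Vamp2, Tubb3, Eno2 and Dlg4 had control means of 23, 9.1, 6.96 and 4.54 FPKM. Of the 5 tested markers 3 rose with betaine plus HTL and 0 fell. The neuronal label was thus met by some of these markers and not by others. Because whole cultures were sequenced, fewer cells expressing a gene and less RNA per cell cannot be told apart.

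Most expressed genes differed from control after betaine plus HTL, and most of the differences were small. A gene is said here to have risen or fallen, or to have been called, where its limma adjusted p (Benjamini-Hochberg over the 10983 genes) was under 0.05. All folds and differences below are on the log2(FPKM + 1) scale, which understates the change of genes with few FPKM. Against control, 6980 genes (63.6%) were called, 4145 higher (37.7%) and 2835 lower (25.8%), with a median size of 0.25 among those called. The counts of genes called in each list below are to be read beside these shares of higher and lower genes. The libraries of both groups did not overlap for 7384 genes (67.2%). At 1.5-fold or more the count was 257 higher (2.34%) and 244 lower (2.22%), and at 2-fold or more 35 higher (0.319%) and 54 lower (0.492%). Counts by size depend on the pseudocount: at 1.5-fold they were 584 and 405 with 0.1 FPKM added in place of 1, and 73 and 87 with 5 FPKM added. The share of called genes that were higher depended on scaling: it was 59.4% with FPKM as deposited, 52.3% after quantile normalization and 49.1% with size factors.

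HTL alone gave 6624 called genes against the same controls (60.3%), of which 4364 were higher (39.7%) and 2260 lower (20.6%). Betaine plus HTL against HTL gave 3865 (35.2%), of which 1607 were higher (14.6%) and 2258 lower (20.6%), and this comparison is also the test of whether both treatments differed from control by unequal amounts. Since both treatments were read against the same 3 control libraries, their agreement in direction is not independent evidence. The comparison between the treatments likewise reuses the HTL and betaine plus HTL libraries, so its calls are not independent of those against control. By these 3 comparisons, 5017 genes stayed different from control in the same direction as with HTL alone. Of these, 3488 showed no called difference between the treatments, 1028 lay farther from control with betaine than without, and 501 lay nearer. A further 1055 genes were new, in that they were called against control and against HTL in the same direction and not called with HTL alone. There were 810 genes that HTL had moved and that, with betaine, were called against HTL and no longer called against control. Another 613 genes were called with HTL alone and in neither other comparison, and 724 were called in betaine plus HTL against control alone. Both treatments were called in opposite directions for 184 genes. Without control replicate 2 that last count was 116, and without control replicate 3 it was 120.

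**Figure D1:**
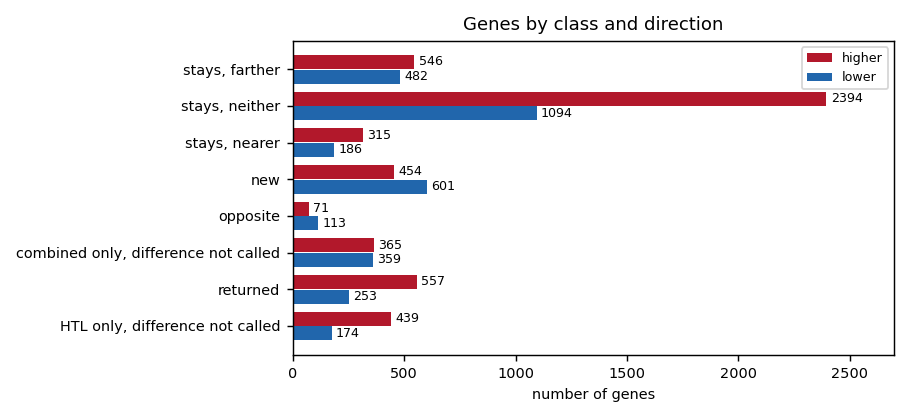
Number of genes in each class, with bars for genes higher and lower than control; for the 2 lowest classes the direction is that of HTL alone, for the others that of betaine plus HTL. Genes that stayed different with no called difference between treatments were the most numerous, with 2394 higher and 1094 lower, and the nearer class held 315 and 186.

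Among the genes that HTL alone had moved by 1.5-fold or more, 342 in all (3.11% of genes tested), return to the control level was rare. With betaine, 7 of them no longer differed by a called amount and lay back toward control (2.05%), 99 were still called but nearer to control (28.9%), 156 showed no called difference from HTL (45.6%) and 76 lay farther out (22.2%). Of the other 4 genes 1 was called on the far side of control and 3 were called neither against control nor against HTL. Of these 342 genes 218 were still at 1.5-fold or more from control in the same direction, 101 higher and 117 lower. The genes new by size, which were at least 1.5-fold from control, called against HTL and within 1.2-fold of control with HTL alone, numbered 56, 29 higher and 27 lower.

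Most of the largest falls that stayed were in cholesterol synthesis, and they lay farther from control with betaine than without it. Of 21 genes of the route 20 fell against control and 0 rose, against 25.8% called lower over all genes, with a median log2 difference of -1.5, where the median of all genes tested was 0.04. All 20 were also called lower in betaine plus HTL than in HTL alone, and the median against control had been -0.96 with HTL alone. The exception was Ggps1, which makes geranylgeranyl diphosphate on a side branch. It read 5.19 FPKM in control and 5.56 FPKM in betaine plus HTL, a difference that was not called. With HTL alone Ggps1 was called higher than control, and it was not called between the treatments. These lists were chosen with earlier results of these data known.

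Hmgcs1, the synthase of an early step of the route, read 86.5, 88 and 85.6 FPKM in the control libraries, 34.9, 36.3 and 36.3 FPKM with HTL and 18.7, 18.6 and 18.6 FPKM with betaine plus HTL. The 3 groups did not overlap, and each betaine plus HTL library lay below every HTL library. The fall was -2.16 ± 0.03 (SE) in log2 against control with limma adjusted p = 5.22e-13, and -0.91 ± 0.03 against HTL with adjusted p = 2.13e-09. Hmgcs1 lies at chr13:119690351-119708260 on mouse build GRCm38.

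Idi1, which isomerizes isopentenyl diphosphate, had the largest fall among the genes named by rule. It read 23.8, 26.3 and 24.4 FPKM in control, 9.32, 10.8 and 10.4 with HTL and 4.37, 4.0 and 4.7 with the combined treatment, a difference of -2.27 ± 0.06 from control (adjusted p = 1.65e-10). Fdps, the farnesyl diphosphate synthase, went from 177 ± 1.22 FPKM (SD, n = 3) in control through 77.8 ± 0.975 to 41.4 ± 2.18. Along the later steps, the mean levels in control, HTL and betaine plus HTL were 22.9, 8.61 and 4.85 FPKM for lanosterol synthase Lss. The sterol demethylases followed the same order, with Cyp51 at 62.7, 33.3 and 17.6 FPKM and Msmo1 at 128, 59.98 and 32.3 FPKM. Ebp moved least of the 20, from 68.3 through 61.7 to 50.6 FPKM.

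**Figure D2:**
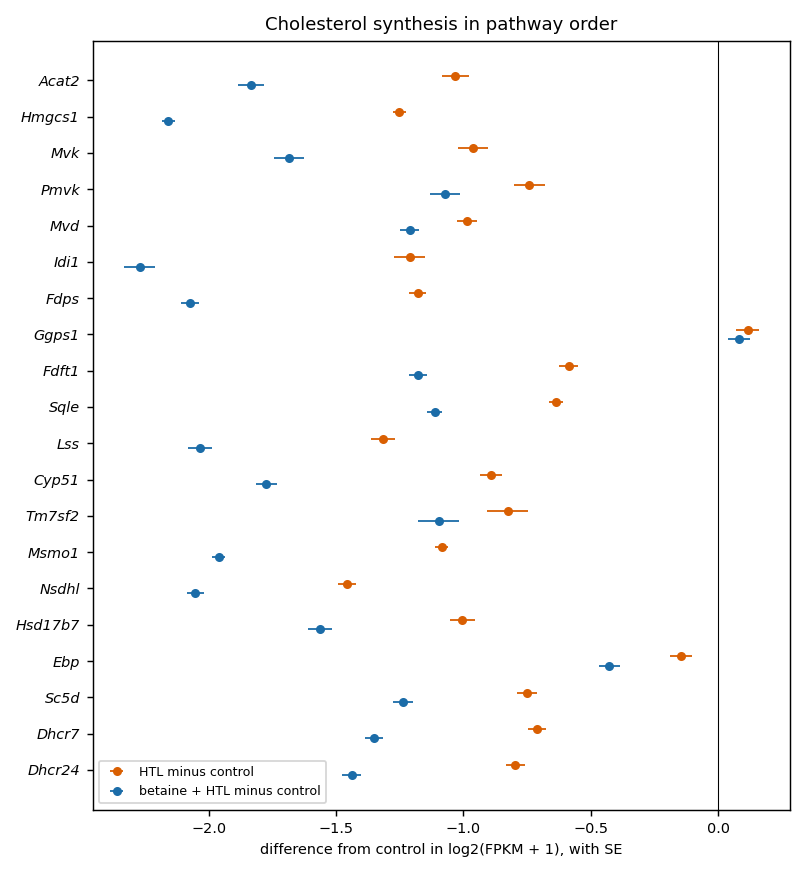
Difference from control in log2(FPKM + 1) for 20 of the 21 genes of cholesterol synthesis in pathway order, with HTL in orange and betaine plus HTL in blue; bars are standard errors from limma. For every gene shown except Ggps1 the blue point lies farther below 0 than the orange one, from Idi1 at -2.27 to Ebp at -0.43, while Ggps1 lies at 0.08.

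Sterol response elements are the sequences to which SREBP factors bind, so the promoter of Hmgcs1 is shown, taken from RefSeq (GRCm38.p6), as the 150 bases before the annotated start, 5′ to 3′, with a match to TCACNCCAC in capitals.
Hmgcs1, chr13:119690201-119690350, plus strand: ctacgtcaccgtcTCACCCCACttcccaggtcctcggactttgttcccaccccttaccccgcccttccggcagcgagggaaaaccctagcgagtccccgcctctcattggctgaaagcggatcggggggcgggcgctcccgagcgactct
Of 10983 genes tested 8864 had a promoter window of 300 bases (250 before to 50 after the start), and motifs were searched on both strands. TCACNCCAC was held by 1 of 15 cholesterol synthesis genes called lower that had a window, Hmgcs1, against 1.27% of all windows. CCAAT, the box bound by NF-Y, was held by 14 of these 15 (93.3%) against 43.9% of all windows. It was held by 15 of 16 of all tested members with a window (93.8%), and Ggps1, which was not called, held it too. A match is a description of letters and not a bound site.

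Regulators and uptake genes of the sterol system moved in both directions. Of 15 genes tested, 6 rose and 9 fell. Insig1, which holds SREBP in the endoplasmic reticulum and is itself an SREBP target, read 52.4, 55.5 and 57.4 FPKM in control and 11.4, 11 and 11.1 FPKM with betaine plus HTL, with HTL between them at 23.9, 24.4 and 23.4. Its difference from control was -2.21 ± 0.04 (adjusted p = 4.11e-12). Srebf2, which encodes SREBP2, fell from 87.6 ± 1.14 to 45.2 ± 0.458 FPKM (SD, n = 3) with HTL at 54.2 ± 0.49. Both genes were called lower than in HTL. Stard4, a cytosolic sterol carrier, fell by the same order from 21.9 through 12.6 to 7.99 FPKM. On the other side Npc1, which exports cholesterol from lysosomes, rose from 13 to 18.8 FPKM.

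Fatty acid synthesis fell as a whole. All 17 genes tested were called lower than control, beside 25.8% over all genes, with a median of -0.71 against -0.42 with HTL alone. Of the 17, 12 lay farther from control with betaine and 5 showed no called difference from HTL, where the shares over all genes were 9.36% and 31.8%. Elovl6, which lengthens palmitate, read 12.8, 14.1 and 13.2 FPKM in control, 5.93, 7.05 and 5.95 with HTL and 3.41, 3.61 and 3.42 with betaine plus HTL, with no overlap between any groups. The stearoyl-CoA desaturases Scd1 and Scd2 fell, with log2 differences of -1.27 and -1.28, and the desaturase Fads2 fell with -1.2. Fasn, the fatty acid synthase, went from 65.5 FPKM through 38.7 to 33.6, and Acaca, which makes malonyl-CoA, from 18.6 through 11.9 to 11.6 with no called difference between the treatments. Pcyt1b and Pcyt2, of phospholipid synthesis, fell (log2 differences of -0.62 and -0.63), within a choline and phosphatidylcholine list in which 4 of 14 rose and 6 fell.

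**Figure D3:**
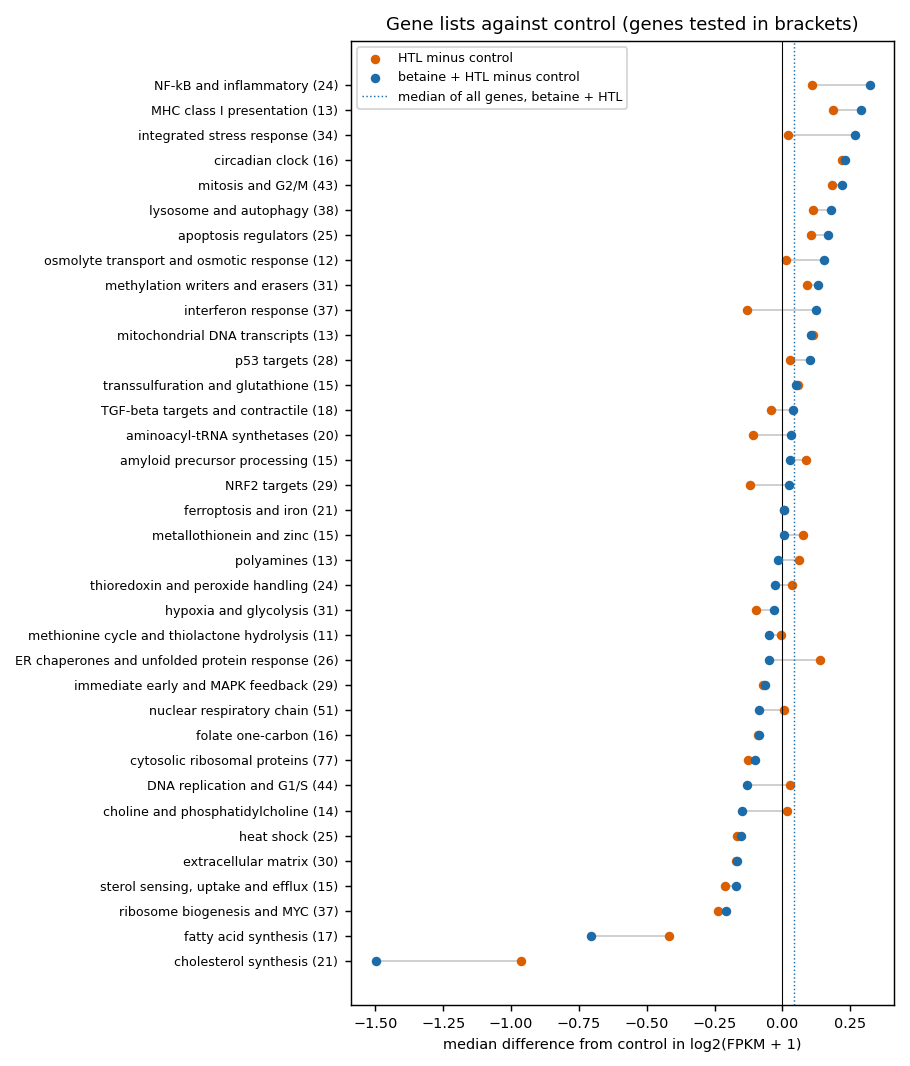
Median difference from control in log2(FPKM + 1) over the tested members of each gene list, with HTL in orange and betaine plus HTL in blue; the dotted line is the median of all genes with betaine plus HTL (0.04). Cholesterol synthesis (-1.5) and fatty acid synthesis (-0.71) stand at the low end, and NF-kB and inflammatory genes (0.32), MHC class I presentation (0.29) and the integrated stress response (0.27) at the high end.

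Several inflammatory and death-receptor genes stayed above control and lay farther out with betaine. Fas, the death receptor and p53 target at chr19:34290647-34327775, read 18.8, 18.6 and 18 FPKM in control, 48.1, 48.2 and 48.9 with HTL and 58.6, 61.8 and 59 with betaine plus HTL. No group overlapped another, and Fas stood 1.64 ± 0.03 in log2 above control (adjusted p = 6.72e-12) and 0.30 ± 0.03 above HTL (adjusted p = 2.34e-05). The chemokine Ccl2 read 959.5, 969 and 978 FPKM in control, 1535, 1534 and 1565 with HTL and 2066, 2050.5 and 2010.2 with both agents, a difference of 1.07 ± 0.02 from control. Of 24 NF-kB and inflammatory genes 17 rose and 3 fell, beside 37.7% and 25.8% over all genes, with a median of 0.32 against 0.11 with HTL alone. In this list 6 members lay farther, 6 nearer and 3 showed no called difference from HTL. The shares of these classes over all genes were 9.36%, 4.56% and 31.8%. Tnfaip3, a feedback inhibitor of NF-kB, rose from 5.9 through 8.86 to 11.4 FPKM, and Ccl7 from 639 through 897 to 1116 FPKM.

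Other genes that rose farther with betaine than without included Pmepa1 and Pim1. Pmepa1, a TGF-beta target that restrains its receptor signal, read 1.34, 1.28 and 1.37 FPKM in control, 2.91, 3.21 and 2.99 with HTL and 5.57, 5.28 and 6.0 with betaine plus HTL. The kinase Pim1 went from 6.2 through 11.2 to 15.5 FPKM, Klhl24, a ubiquitin ligase adaptor, from 2.32 through 6.05 to 8.16, and Enpp2, the lysophospholipase D known as autotaxin, from 0.475 through 0.923 to 2.49. Prl2c2, a prolactin family hormone, read 82.6, 83.7 and 77.5 FPKM in control, 116, 112 and 118 with HTL and 326, 336 and 311 with both, the largest rise among the genes named by rule (1.98 ± 0.04). Its value is uncertain because near-identical copies of this gene may share its reads. In the opposite direction Egr1, an immediate early transcription factor, fell from 8.34, 7.83 and 7.76 FPKM through 4.09, 3.57 and 3.74 to 1.48, 1.33 and 1.67, and the MAPK-dependent Etv5 and Dusp6 fell (log2 differences of -1.05 and -0.86). Col6a1 and Timp2 of the extracellular matrix fell (log2 differences of -1.23 and -1.24), in a list where 17 of 30 fell and 6 rose, beside 25.8% and 37.7% over all genes.

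The most numerous class showed no called difference between the treatments. Lipa, the lysosomal acid lipase that frees cholesterol and fatty acids from esters, read 28.7, 28.5 and 27.6 FPKM in control, 65.6, 62.4 and 64.6 with HTL and 66.4, 70.7 and 63.5 with betaine plus HTL. Both treated groups lay above every control library and overlapped each other. Against control the difference was 1.21 ± 0.04 (adjusted p = 5.67e-10) and against HTL 0.06 ± 0.04 (adjusted p = 0.26), which does not show that the levels were equal. Anxa8, an annexin, read 12.5, 10.9 and 10.8 FPKM in control, 32.6, 33 and 30.9 with HTL and 29.6, 32.1 and 32.3 with both. Setd2, the histone H3 lysine 36 methyltransferase, and Mettl3, the RNA adenosine methyltransferase, stood 0.70 ± 0.03 and 0.56 ± 0.03 above control, in a list of methylation writers and erasers of which 16 of 31 rose and 6 fell, beside 37.7% and 25.8% over all genes, and 12 rose and 7 fell with size factors. Zfp292, a zinc finger protein, rose from 6.08 to 13.2 FPKM with HTL at 13.5.

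Falls with no called difference between the treatments included Chac1, which degrades glutathione and is a target of ATF4. It read 46.4, 46.9 and 47.1 FPKM in control, 25.3, 23 and 27.5 with HTL and 25.3, 24.4 and 27.7 with betaine plus HTL, a difference of -0.84 ± 0.06 from control (adjusted p = 3.74e-07). Bloc1s1, a subunit of a lysosome-positioning complex and the classical target of RNA decay by IRE1, fell from 34.4 ± 3.43 to 14.9 ± 0.889 FPKM (SD, n = 3) with HTL at 15.6 ± 1.6. Rpp40, a subunit of ribonuclease P, the matrix cross-linking enzyme Loxl1 and the phosphatidate phosphatase Lpin1 fell, with log2 differences of -0.94, -0.93 and -0.81. The osmolyte carrier Slc5a3, which imports myo-inositol, read 6.56, 3.58 and 3.98 FPKM in control, HTL and betaine plus HTL.

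For several whole lists the medians against control with HTL and with betaine plus HTL, which share their controls, lay close together. Among 43 mitotic genes 32 rose and 2 fell, beside 37.7% and 25.8% over all genes, with a median of 0.22 against 0.18 with HTL alone. Cenpf, a kinetochore protein, rose by 0.81 and the spindle protein Nusap1 by 0.64. In ribosome biogenesis 24 of 37 fell and 6 rose, beside 25.8% and 37.7% over all genes (median -0.21, and -0.24 with HTL alone). Nop58, a box C/D nucleolar protein, stood at -0.44. Cytosolic ribosomal protein genes fell in 39 of 77 cases and rose in 5, beside 25.8% and 37.7% over all genes, but the counts depended on scaling, with 25 falling and 12 rising after quantile normalization and 53 and 1 with size factors. Heat shock genes fell in 15 of 25 cases and rose in 6, beside 25.8% and 37.7% over all genes, and the mitochondrial chaperonin Hspd1 fell with a log2 difference of -0.39. Circadian clock genes rose in 10 of 16 cases and fell in 1, beside 37.7% and 25.8% over all genes, with medians of 0.23 and, for HTL alone, 0.22. The clock repressor Nr1d2 stood at 13.7 FPKM in control and 24.9 with betaine plus HTL.

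Genes still different from control with betaine plus HTL but nearer to it included an acute-phase gene and a thioredoxin inhibitor. Saa3, serum amyloid A3, read 478, 502 and 493 FPKM in control, 1687, 1663 and 1694 with HTL and 1028, 936 and 966 with betaine plus HTL. The combined group lay between the others with no overlap, 0.99 ± 0.03 in log2 above control and -0.78 relative to HTL (adjusted p = 5.44e-08). Txnip, which binds thioredoxin and limits glucose uptake, read 4.67, 4.47 and 3.92 FPKM in control, 13, 13.8 and 13.2 with HTL and 9.04, 10.9 and 9.75 with both. The chemokine Cxcl12 showed the same order at 17.2, 44.9 and 27.1 FPKM, and the siderophore-binding protein Lcn2 at 15.4, 39.2 and 23.5 FPKM. The chitinase-like Chil1 went from 3.14 FPKM with control to 10.3 with HTL and 5.78 with both.

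On the falling side Angptl2, a secreted angiopoietin-like protein, read 13.3, 14.5 and 13.6 FPKM in control, 2.35, 1.94 and 2.18 with HTL and 3.74, 4.0 and 3.66 with betaine plus HTL, so most of its fall remained. Lamp1, a main protein of the lysosomal membrane, read 292, 292 and 299.9 FPKM in control, 124, 121 and 118 with HTL and 130.2, 135 and 131 with both. In its lysosome and autophagy list 24 of 38 genes rose and 8 fell, beside 37.7% and 25.8% over all genes. The chemokine Ccl5 lay closer to control, moving from 50.8 FPKM with HTL to 98.4 with betaine against 135 in control. The oxidant-response genes Hmox1 and Nqo1 read 252 and 37.4 FPKM in control, 160.4 and 23.9 with HTL, and 191 and 33.2 with both. Sprr1a and Cdsn, proteins of the cornified epidermis, fell (log2 differences of -1.31 and -1.13 against control) and were nearer to it than with HTL alone (-1.62 and -1.55). The third tested gene of this list of 8 epidermal markers, Lce1g, rose from 4.06 through 5.47 to 10.8 FPKM (1.22 in log2 against control). The list's summed level ran from 100.4 to 109.7 FPKM in control, from 36.1 to 40.7 with HTL and from 47.2 to 54.8 with betaine plus HTL, most of it from Sprr1a, and its part in other results was not tested.

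**Figure D4:**
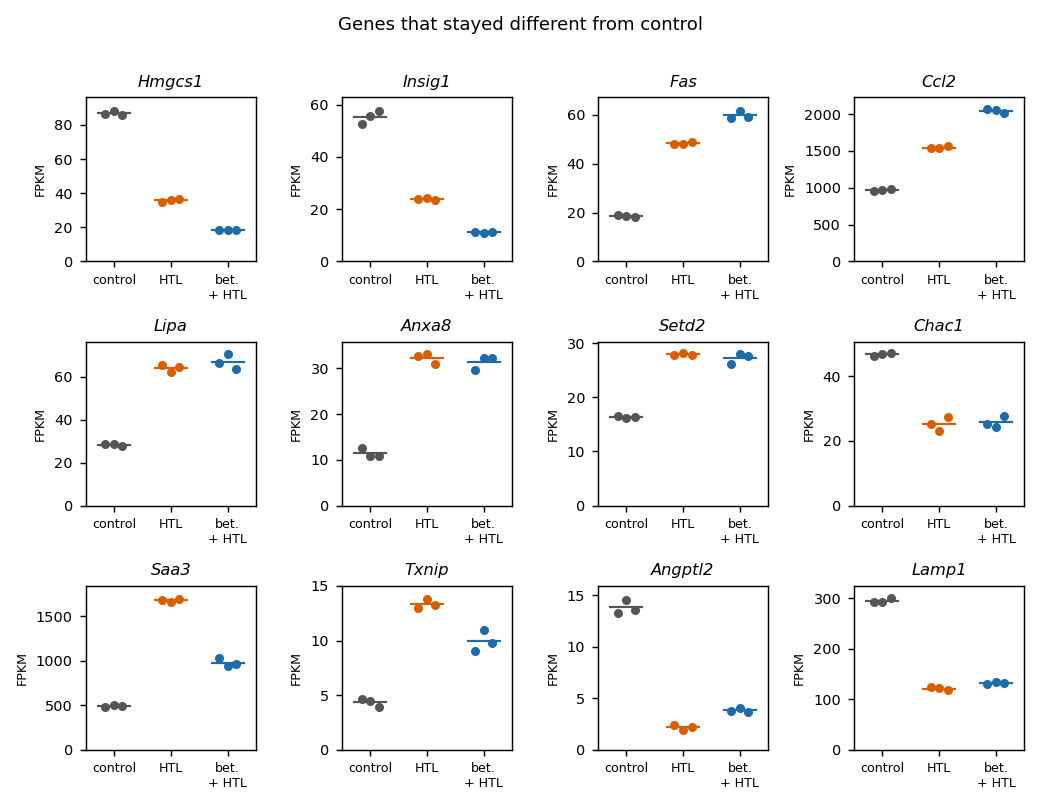
FPKM of 12 genes that stayed different from control, by library (points) with the group mean (line); each vertical axis starts at 0. Hmgcs1 and Insig1 step down and Fas and Ccl2 step up from control through HTL to betaine plus HTL; for Lipa, Anxa8, Setd2 and Chac1 both treated groups overlap; Saa3, Txnip, Angptl2 and Lamp1 lie between HTL and control.

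Among the genes new by size with an established symbol, Acta2 had the largest rise. This gene for smooth muscle actin at chr19:34240336-34255585 read 19.8, 19.7 and 19.3 FPKM in control, 20.9, 19.3 and 20.1 with HTL and 42.6, 45.3 and 42.8 with betaine plus HTL. Control and HTL libraries overlapped, and every combined library stood apart from them, 1.11 ± 0.04 in log2 above control (adjusted p = 6.49e-10) and 1.08 ± 0.04 above HTL (adjusted p = 6.69e-09). Other contractile genes of the TGF-beta and contractile list were near the detection limit, with Tagln at most 0.141, Cnn1 at most 0.0395 and Actg2 at most 0.11 FPKM in any library, and the list was split, with 8 of 18 higher and 7 lower. Vegfa, the vascular growth factor, read 29.1, 27.5 and 28.1 FPKM in control, 30.4, 30.7 and 34.1 with HTL and 49.6, 48.1 and 54.4 with both; it was called in HTL as well, at 0.16 against 0.82 with the combined treatment. The glucose carrier Slc2a1 went from 49.6 through 56.3 to 72.6 FPKM, although the hypoxia and glycolysis list was split, with 10 of 31 higher and 9 lower. Lef1, a transcription factor of the Wnt pathway, and Glipr1, a secreted p53 target, rose by 0.73 and 0.78. Lef1 was called higher with HTL alone too, by 0.0978 to 0.415 over the settings run, except after quantile normalization. Glipr1 was called with HTL alone only when HTL replicate 2 was left out. The transcription factor Myc was new at 63.7, 65.6 and 89.98 FPKM. Gsta1, a glutathione transferase, was called new (adjusted p = 0.0389) but its libraries read 1.24, 1.75 and 5.89 FPKM with betaine plus HTL against 0.805, 0.87 and 1.21 in control, so its mean rests on replicate 3, and the call was lost under 9 of the 17 other settings in which it could be fitted.

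Genes of the integrated stress response rose with betaine plus HTL as a group. Of 34 tested, 24 rose and 4 fell against control, beside 37.7% and 25.8% over all genes, and the median was 0.27 against 0.02 with HTL alone. Of these 34 genes 11 were new and 8 lay farther from control than with HTL, where the shares over all genes were 9.61% and 9.36%. Atf4, the transcription factor of this response, read 504, 492 and 492 FPKM in control, 526, 514 and 516 with HTL and 590.0, 619 and 586 with both. Genes of amino acid supply were among those that rose. Asns, the asparagine synthetase, went from 98.5 through 115 to 147 FPKM, the glycine carrier Slc6a9 from 33.9 through 37.7 to 52.9, and Aldh18a1, of proline synthesis, from 97.4 through 97.4 to 118. Sesn2, Stc2, Gpt2 and Gdf15 were new, with rises of 0.45, 0.54, 0.38 and 0.48. Against this trend Ddit3, which encodes the death-linked factor CHOP, fell from 15.7, 15.6 and 17.5 FPKM to 12.4, 10.8 and 12.1 with HTL at 15.7, 15.6 and 15.2, and Trib3 read 64.2 FPKM against 66.9 in control, which was not called.

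Cystine uptake and the making of cysteine from cystathionine were part of that rise. Slc7a11, the cystine and glutamate exchanger, read 11.6, 11.4 and 10.9 FPKM in control, 11.4, 11.7 and 11.4 with HTL and 18.6, 18.4 and 18.1 with betaine plus HTL. Control and HTL overlapped and the combined libraries stood above both, at 0.65 ± 0.03 against control (adjusted p = 3.37e-08) and 0.63 ± 0.03 against HTL. Cth, the enzyme that releases cysteine from cystathionine, read 18.4, 19.3 and 17.3 FPKM in control, 19.7, 20.6 and 19.95 with HTL and 32, 29.5 and 30.5 with both, and had been called higher with HTL by 0.13. Gclc, the catalytic subunit of the first enzyme of glutathione synthesis, rose from 33.2 to 46.9 FPKM with HTL at 34.9. Slc7a11 and Gclc are also members of the list of NRF2 targets described below. In the transsulfuration and glutathione list as a whole 6 of 15 rose and 2 fell, and Cbs, which makes cystathionine from homocysteine, did not exceed 0.0579 FPKM in any library.

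The promoter of Slc7a11 holds a pair of composite elements of the kind bound by ATF4 with CEBP factors. The start used by RefSeq (GRCm38.p6) lies inside the gene's annotated span of chr3:50364936-50499087, and the 150 bases before it, at chr3:50443614-50443763 on the minus strand, are given with matches to TGATGNAAN in capitals, the first on the printed strand and the second on the other.
Slc7a11, chr3:50443614-50443763, minus strand: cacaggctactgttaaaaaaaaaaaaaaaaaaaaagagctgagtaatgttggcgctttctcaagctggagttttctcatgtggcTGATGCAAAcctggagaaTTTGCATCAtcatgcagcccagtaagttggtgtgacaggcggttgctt
The motif was held by 6 of 22 integrated stress response genes called higher that had a window (27.3%), by 10 of 31 of all members tested (32.3%) and by 2.48% of all windows. Members that fell, such as Chac1, or were not called, such as Trib3, held it too. The antioxidant response element core, TGACNNNGC, was held by 10 of these 22 genes (45.5%), by 11 of 31 of all members tested (35.5%) and by 17.0% of all windows. Among NRF2 targets with a window it was held by 2 of 8 called higher (25.0%) and by 9 of 24 tested (37.5%). Which factor acted on any of these genes was not tested.

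Interferon-stimulated genes split, with a strong rise of some members. Of 37 tested 18 rose and 7 fell against control, beside 37.7% and 25.8% over all genes. The median was 0.12, where HTL alone had given -0.13 and betaine plus HTL against HTL gave 0.33. Rsad2, the antiviral enzyme viperin, read 3.58, 3.29 and 3.38 FPKM in control, 3.19, 3.47 and 3.3 with HTL and 7.36, 7.39 and 7.46 with betaine plus HTL. Its combined libraries lay above all others, by 0.93 ± 0.04 against control (adjusted p = 2.12e-08). Ifit1, which binds foreign RNA ends, read 23.1, 22.4 and 22.1 FPKM in control, 27, 26.7 and 26.1 with HTL and 48.7, 48.3 and 47.2 with both, and was also called with HTL alone (0.23 against 1.06). The guanylate-binding GTPase Gbp2 went from 24.5, 24.6 and 23.1 FPKM through 33.9, 35.4 and 35.1 to 56.7, 61.7 and 56.6, its relative Gbp3 from 10.6 through 12.2 to 20.7, and the chemokine Cxcl10 from 75.7 through 105 to 163.

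Other interferon genes lay at or below the control level. Ifi44 read 4.91, 2.57 and 4.13 FPKM in control, HTL and betaine plus HTL, and its last difference from control was not called. Irf7, the master factor of the type I response, and Oas3, which senses double-stranded RNA, were still lower than control at -0.25 and -0.28 but nearer than with HTL. Ifitm3, which blocks viral entry, fell from 651 through 551 to 503 FPKM. Genes of MHC class I presentation rose in 11 of 13 cases and fell in 2, beside 37.7% and 25.8% over all genes. The peptide carrier Tap1 rose from 21.9 to 30.8 FPKM.

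Promoters of 3 interferon genes that rose are printed because each holds the interferon-stimulated response element, as 150 bases before the start from RefSeq (GRCm38.p6) with the element (GAAA, 2 bases of any kind and GAAA) in capitals, here read on the opposite strand.
Ifit1, chr19:34640739-34640888, plus strand: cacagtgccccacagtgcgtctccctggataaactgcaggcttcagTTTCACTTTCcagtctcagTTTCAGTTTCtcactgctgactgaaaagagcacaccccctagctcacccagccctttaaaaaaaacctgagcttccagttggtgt
Rsad2, chr12:26456453-26456602, minus strand: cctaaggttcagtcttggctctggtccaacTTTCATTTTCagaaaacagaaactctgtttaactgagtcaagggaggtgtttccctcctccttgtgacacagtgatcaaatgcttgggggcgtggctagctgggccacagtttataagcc
Gbp2, chr3:142620513-142620662, plus strand: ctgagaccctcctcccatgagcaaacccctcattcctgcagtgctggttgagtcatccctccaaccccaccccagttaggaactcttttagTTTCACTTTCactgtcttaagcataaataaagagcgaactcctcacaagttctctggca
This motif was held by 9 of 15 interferon genes called higher that had a window (60.0%), by 17 of 30 of all tested members with a window (56.7%) and by 3.55% of all windows. Members that fell, such as Oas3 and Ifitm3, held it too.

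Cdkn3, Tyms, Pclaf, Spp1 and Il33 were among the genes lower with the combined treatment than with HTL alone. Cdkn3, a cell cycle phosphatase, read 8.98, 8.28 and 9.55 FPKM in control, 8.38, 8.04 and 7.28 with HTL and 4.79, 4.78 and 3.59 with betaine plus HTL, -0.89 ± 0.09 in log2 from control (adjusted p = 5.17e-06). Of 44 DNA replication genes 23 fell and 6 rose, beside 25.8% and 37.7% over all genes, with a median of -0.13 against 0.03 with HTL alone. With size factors 29 fell and 1 rose. In this list 9 genes were new and 9 farther, where the shares over all genes were 9.61% and 9.36%. The nucleotide enzyme Tyms fell from 19, 18 and 19.6 FPKM to 13.8, 13.7 and 13.6 with HTL at 18.2, 17.9 and 17.7, and Pclaf, a partner of the replication clamp, read 94, 78.8 and 56.9 FPKM in control, HTL and betaine plus HTL. The secreted phosphoprotein Spp1 and the alarmin Il33 fell, both with a log2 difference of -0.73. Pclaf, Spp1 and Il33 had also been called lower with HTL alone, at -0.25, -0.25 and -0.23. The respiratory chain subunits encoded in the nucleus fell in 23 of 51 cases and rose in 3, beside 25.8% and 37.7% over all genes, and these counts depended on scaling, with 18 and 6 after quantile normalization and 36 and 1 with size factors. Ndufa5 of complex I read 72.7, 71.9 and 52.7 FPKM in control, HTL and betaine plus HTL.

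An endoplasmic reticulum chaperone was among the genes called in opposite directions. Hspa5, the main chaperone of that compartment, known as BiP, read 331, 328 and 325 FPKM in control, 456, 448 and 455 with HTL and 305, 306 and 294 with betaine plus HTL. HTL libraries lay above every control and the combined libraries below every control, with differences of 0.46 ± 0.02 and -0.12 ± 0.02 in log2 (adjusted p = 5.28e-08 and 0.000916). Sdf2l1, a partner of Hspa5, was new at 11.9, 13 and 13.7 FPKM with both against 20.8, 21 and 22 in control and 21.5, 23.1 and 21.8 with HTL. Across 26 genes of this list 8 rose and 11 fell, beside 37.7% and 25.8% over all genes, with a median of -0.05 against 0.14 with HTL alone. The oxidases Ero1a and Ero1b rose by 0.64 and 0.99, farther than with HTL.

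Ptgs2, the inducible cyclooxygenase, moved the other way. It read 35.3, 33.4 and 34.2 FPKM in control, 26.4, 27 and 27.2 with HTL and 61.6, 62.2 and 59.7 with both, so the log2 difference from control was -0.34 with HTL and 0.82 ± 0.03 with both (adjusted p = 1.67e-09). Hspa4l, an Hsp110 family chaperone, went from 16.8 FPKM in control to 13.6 with HTL and 21.7 with both. Of the genes that returned, Nrp2, a semaphorin and VEGF co-receptor, read 38.2, 38 and 38.8 FPKM in control, 25.4, 24.9 and 23.2 with HTL and 38.8, 40.6 and 41 with betaine plus HTL. The combined libraries lay at or just above the highest control library, and the difference of 0.07 ± 0.04 was not called (adjusted p = 0.13).

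**Figure D5:**
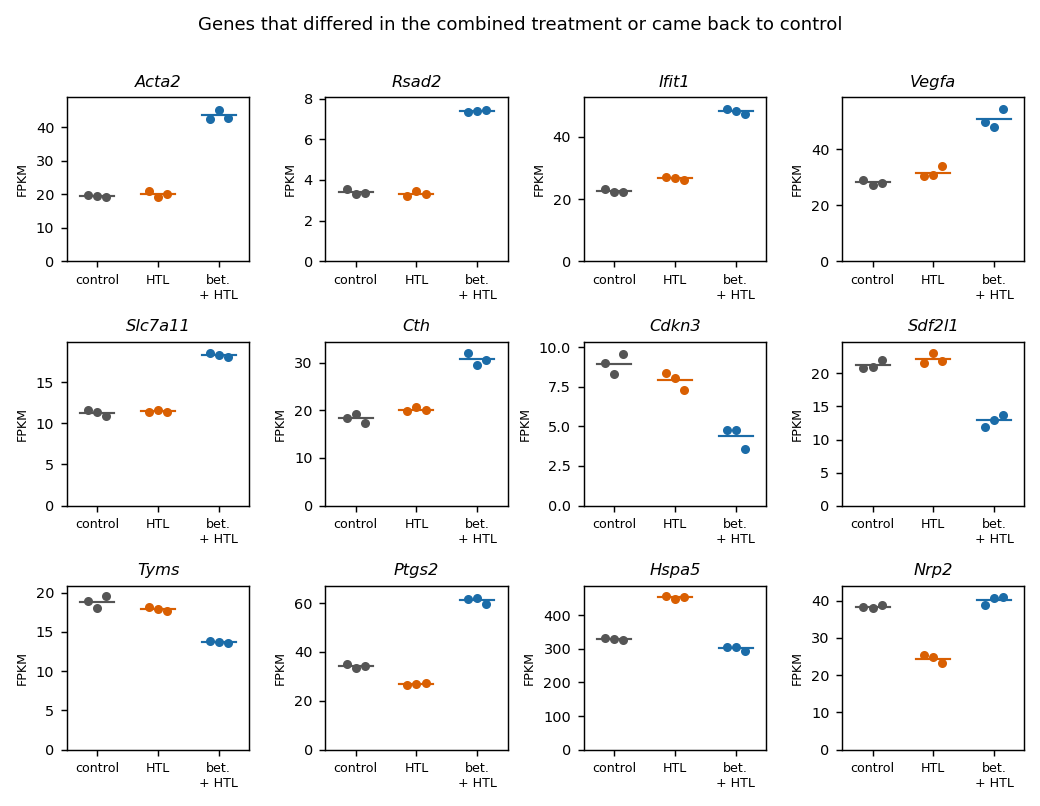
FPKM of 12 genes by library (points) with the group mean (line); each vertical axis starts at 0. Acta2, Rsad2, Ifit1, Vegfa, Slc7a11 and Cth are higher and Cdkn3, Sdf2l1 and Tyms lower with betaine plus HTL than in the other groups; Ptgs2 and Hspa5 cross the control level; Nrp2 is back at it.

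Enzymes of homocysteine and methionine changed by small amounts, and the betaine-dependent enzyme Bhmt was near the detection limit. Bhmt did not exceed 0.0126 FPKM and Slc6a12, a betaine carrier, did not exceed 0.00835 FPKM in any of the 9 libraries. The amino acid carrier Slc38a2 rose against control, by 0.151 to 0.272 in log2 over the settings run. With HTL alone Slc38a2 rose by 0.148 to 0.271, and no setting called a difference between the treatments. Uptake of betaine was not tested. Of 11 tested genes of the methionine cycle and thiolactone hydrolysis 4 rose and 5 fell, with a median of -0.05. Mat2a, which makes S-adenosylmethionine, fell from 86, 88.7 and 90.6 FPKM in control through 71.1, 72.1 and 73.4 with HTL to 64.1, 63.5 and 65 with both. Ahcy, which splits S-adenosylhomocysteine, fell to 70.03 FPKM from 91.1 with HTL at 71.6, and the methionine synthase Mtr rose from 3.86 to 5.64 with HTL at 5.22. Blmh, bleomycin hydrolase, read 43.1, 42.9 and 42 FPKM in control, 47.8, 48.2 and 48.1 with HTL and 40.7, 39 and 41.9 with betaine plus HTL. Its fall against control was small at -0.07 ± 0.03 (adjusted p = 0.046) and was lost under 13 of 18 other settings.

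Lists with members on both sides and medians close to that of all genes were the NRF2 targets, with 11 of 29 higher and 9 lower, the thioredoxin and peroxide genes, with 7 of 24 higher and 7 lower, and the aminoacyl-tRNA synthetases, with 8 of 20 higher and 7 lower. The median of each of these 3 lists changed sign under quantile normalization or size factors. Against control, HTL alone had given 6 NRF2 targets higher and 15 lower, and 2 synthetases higher and 12 lower. Betaine plus HTL against HTL gave 18 NRF2 targets higher and 3 lower, and 12 synthetases higher and 0 lower. Over all genes the shares higher and lower were 39.7% and 20.6% for HTL alone, and 14.6% and 20.6% between the treatments. Among p53 targets 12 of 28 rose and 7 fell, shares close to the 37.7% and 25.8% over all genes. Among apoptosis regulators 13 of 25 rose and 6 fell, beside the same 37.7% and 25.8%. Cdkn1a, the p53-dependent cell cycle inhibitor, read 13.5, 14.3 and 16.7 FPKM. Bcl2l11, the death inducer BIM, rose from 2.66 to 4.5 FPKM with HTL at 4.5. Bcl2, which opposes it, read 0.45, 0.417 and 0.47 FPKM with both against 0.862, 1.13 and 0.941 in control. With HTL alone Bcl2 read 0.783, 0.921 and 0.818 FPKM and was not called against control. In the osmolyte list 7 of 12 rose and 3 fell, beside 37.7% and 25.8% over all genes. The creatine carrier Slc6a8 of this list was new at 43.7, 44 and 54.7 FPKM.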

How the data were processed

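RNA of 9 HT-22 libraries was measured by RNA-seq. Per the labels' protocols, TRIzol was used for total RNA and a VAHTS Universal kit for the libraries. The authors deposited FPKM values per gene and library, per the file headers. The submitters' processing notes name fastp, HISAT2, HTSeq, R 3.2.0 and the build mm10; what each did, how reads were counted and whether strand was used is not given in the sources used here. Reads of near-identical, overlapping or antisense genes may therefore have been split or dropped.

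FPKM are not counts, so log2(FPKM + 1) was tested with limma 3.58.1 (R 4.3.3) over all 9 libraries, as 3 group means with a trend in the spread and 6 residual degrees of freedom. Tests were two-sided, and Benjamini-Hochberg adjustment was done per comparison, with a threshold of 0.05. An exact permutation test of 3 libraries against 3 cannot go below p = 0.1. The script was tested on simulated data. The labels do not state that the replicates were separate cultures, and a p-value here reflects only how these libraries varied, possibly for technical reasons. Whole reads were recovered within 0.05 reads for 2515 of 2654 genes tried. Over the 2417 of these genes with at least 20 reads in every library, replicates of a group differed by 2.54 to 3.82 times counting noise (chi-square per degree of freedom), so none was a copy of another.

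Genes named by rule were the 10 largest rises and falls against control without overlap of the libraries and with at least 1 FPKM, the 8 largest new by size and the 5 largest of each class of genes that stayed in each direction, the 4 largest called members of each gene list with the largest of its rarer direction, the 5 largest returned genes in each direction, and a short list of stress and homocysteine genes. Other list members were named after their values were seen. The comparison, the 36 gene lists and the rule were chosen with earlier results of these data known. Alternatives covered the pseudocount, the filter, the scaling, the trend, a replicate block, single libraries left out, the 6 libraries alone and the size limits. Promoters came from RefSeq (GRCm38.p6), as did gene positions on GRCm38, both matched by Entrez identifier. Some members of the gene lists are not reported here.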

Additional observations from a re-analysis of the deposited data

How the results depend on the processing

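Of the 208 genes named by rule, 196 kept their direction and call in betaine plus HTL against control under all settings run, 12 had a changed call under some setting and 0 reversed. The classes also rest on the other comparisons, whose calls changed for some named genes. The call of HTL against control changed for Vegfa under 4 settings, Cth under 5 and Atf4 under 4. The call between the treatments changed for Timp2 under 3 settings and Ifitm3 under 5. Acta2 and Slc7a11 kept both of these calls. Called genes against control numbered 6423 to 6930 with a library left out, against 6980 with all 9, and 6754 with the 6 libraries alone. Counts by size moved because the pseudocount shrinks folds of low genes. With 0.1 FPKM added the genes at 1.5-fold or more were 584 higher and 405 lower, with 5 FPKM added 73 and 87, and with a filter at 5 FPKM 168 were higher. Genes that stayed by size were 307 higher and 179 lower with 0.1 FPKM, 27 and 47 with 5 FPKM, 64 higher with the filter, and 9 and 21 with a limit of 2-fold. Genes new by size were 44 higher and 64 lower with 0.1 FPKM, 9 and 4 with 5 FPKM, 16 lower with the filter, 10 and 8 when HTL alone had to be within 1.1-fold of control, and 2 and 1 with a limit of 2-fold. Genes called in opposite directions numbered 116 to 172 with a library left out, against 184; the cause was not tested. The share of calls that were higher fell to 52.3% after quantile normalization and 49.1% with size factors, for which the median of all genes shifted by -0.03 and -0.044 in log2.

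Replicate numbers are shared between groups, but same-numbered libraries did not deviate together (r from -0.0708 to 0.0606 between deviations from the group means), so the numbers were not taken to pair the libraries. With the replicate block 6915 genes were called against control, 4110 higher and 2805 lower, 6514 for HTL against control and 3682 between the treatments.

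Depth limits genes of few FPKM, since 1 FPKM stood for 33.3 to 39.5 reads per kilobase of gene.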

Other observations

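Gene lists not described above were mostly split between rises and falls, where 37.7% of all genes rose and 25.8% fell. In folate one-carbon metabolism 4 of 16 genes rose and 8 fell. Aldh1l2, the mitochondrial formyltetrahydrofolate dehydrogenase, was new at 50.3, 51.4 and 49.7 FPKM with betaine plus HTL against 37, 36.1 and 35.3 in control and 37.6, 38 and 37.6 with HTL. Gart, of purine synthesis, fell from 35.7 to 25.5 FPKM with HTL at 26.5. Of the transcripts of mitochondrial DNA 3 of 13 rose and 1 fell, ND1, whose call was lost under 11 settings. CYTB, a complex III subunit, read 2775, 2821 and 2931 FPKM in control and 4340.5, 4514 and 3919 with both. Over the settings run CYTB rose by 0.339 to 0.635 in log2 with HTL alone and by 0.215 to 0.639 with both. Only quantile normalization gave a called CYTB difference between the treatments. In polyamine metabolism 3 of 13 rose and 4 fell: the spermine oxidase Smox rose by 0.62 in log2, while the spermidine synthase Srm and the spermine synthase Sms fell (log2 differences of -0.37 and -0.46). Of 15 metallothionein and zinc genes 5 rose and 3 fell. The zinc carrier Slc30a4 fell from 72.9 ± 1.74 to 40.4 ± 1.92 FPKM (SD, n = 3) and the metallothionein Mt1 from 223 ± 20.7 to 167 ± 21. In the ferroptosis and iron list 7 of 21 rose and 7 fell, and Lpcat3, which loads polyunsaturated fatty acids into phospholipids, read 33.8, 32.9 and 36.4 FPKM in control, 29.6, 28.8 and 28.8 with HTL and 20.4, 22.9 and 20.8 with both. Immediate early and MAPK feedback genes rose in 10 of 29 and fell in 14, and amyloid precursor processing genes rose in 3 of 15 and fell in 5.

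Sums over markers of other cell types rested on few genes, some of them moving in opposite directions. In the progenitor list of 4 genes the sum was mostly Vim, an intermediate filament protein, which fell from 1102 through 785 to 762 FPKM, while the transcription factor Pax6 rose by 0.34 in log2. In the astrocyte list of 8, of which 2 were tested, the gap junction protein Gja1 rose from 112 to 141 FPKM and the glutamine synthetase Glul fell from 25.7 to 22.8. In the fibroblast list Acta2 rose by 1.11 and the collagen Col1a1 fell from 139 to 105 FPKM. The platelet-derived growth factor receptor Pdgfra, in the oligodendrocyte list, rose from 2.65 through 4.97 to 5.31 FPKM. The microglial list summed to 10.3 to 11.7 FPKM in control and 7.65 to 8.59 with betaine plus HTL, and the endothelial list to 3.16 to 3.36 and 2.12 to 2.53. In the same order the sums were 1136 to 1171 and 793 to 815.6 for the progenitor list, 136 to 141.4 and 162.3 to 165.3 for the astrocyte list, 43.4 to 45.4 and 51.6 to 54.5 for the neuronal list, 9.44 to 9.88 and 12.8 to 13.1 for the oligodendrocyte list, and 165 to 168.2 and 152.6 to 160.5 FPKM for the fibroblast list.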
